A study of Homo sapiens with 8 samples.

Results

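Galectins are small lectins that bind β-galactosides on glycoproteins and glycolipids through a conserved carbohydrate recognition domain, both inside and outside the cell. LGALS1 encodes galectin-1, a prototype galectin that acts as a dimer, LGALS3 encodes galectin-3, the chimera-type member with a long N-terminal tail, and LGALS8 and LGALS9 encode tandem-repeat galectins that carry a pair of domains on 1 chain. LGALS3BP encodes a secreted, heavily glycosylated galectin ligand and is not itself a lectin. In lymphoid tissue these proteins are known for cross-linking glycans on receptors of T and B cells, and galectin-3, galectin-8 and galectin-9 for binding glycans exposed on damaged lysosomes and endosomes. The family described here was these 5 genes, chosen by symbol, of 63967 gene labels in the expression table, 18143 of which could be given a row of values. The family and the gene lists below were chosen with earlier results of these data known. The p-values, counts and medians below are therefore no independent evidence about them.

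RNA-seq was performed on Raji, a rituximab-sensitive Burkitt's lymphoma cell line, and on Raji-4RH, its rituximab-resistant derivative, obtained by repeated exposure to the antibody. Each line received 3 μM chidamide, a histone deacetylase inhibitor, or the solvent DMSO for 24 h, so that the 8 libraries made 4 groups of 2. Raji-4RH is 1 derived line, and the effect of resistance cannot be told apart from other differences between these particular cultures. The labels do not say whether the 2 libraries of a group came from separate cultures, so p-values measure the spread between these libraries, which may be technical.

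Library totals ran from 13991697 to 21193441 reads. The B cell markers MS4A1, CD79A, CD79B, PAX5 and CD22 were at 12.5 FPKM or more in every library, where FPKM is reads scaled to the gene's length and to the library's total. Markers of other lineages were low but moved with chidamide. The summed level of 5 T cell markers was 0.0712 to 0.0782 FPKM in Raji with DMSO, 0.815 to 1.05 in Raji with chidamide, 0.720 to 0.943 in Raji-4RH with DMSO and 3.98 to 4.95 in Raji-4RH with chidamide, where CD3E reached 4.10. CD3D was at 0 in all 4 DMSO libraries. The 4 myeloid markers that could be read summed to 0.979 to 0.981, 5.75 to 6.15, 0.826 to 0.897 and 7.90 to 8.10 FPKM in the same order. CSF1R and LYZ led in the chidamide groups, LYZ in Raji with DMSO and CD14 in Raji-4RH with DMSO (0.622 and 0.600 FPKM). MPO was at no more than 0.185. The 5 fibroblast markers summed to 0.140 to 0.199, 2.29 to 2.47, 0.0446 to 0.0765 and 0.786 to 0.923 FPKM, led by COL1A1. LGALS1, LGALS3, LGALS9 and LGALS3BP are also expressed by such cells, and the part of these markers in the galectin values was not tested.

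The rows of the deposited table had to be matched to their labels first, because the table held more labels than values and values lay increasingly far below their labels. LGALS1, LGALS8 and LGALS3BP stood beside their own values, LGALS3 was read 1 row below its label and LGALS9 4 rows below. The overall level of genes had been used to set these distances, so the following is a description. In the stretch of rows around LGALS3, 101 of 112 labels of housekeeping or lymphoid-silent genes were at the level usual for their kind at a distance of 1 row, against at most 58 at any of the 20 other distances tried. In the stretch around LGALS9 it was 35 of 37 at 4 rows, against at most 21 at the other distances. Within 150 rows of LGALS3 the distance of 1 row placed 13 of 17 such labels at their level, and 1 other distance did equally well, so that LGALS3 rests on the longer stretch. Near LGALS9, the mitochondrial fission factor MFF then read 8.54 FPKM on average in place of 0.183, and the neuronal receptor GRM5 0.00725 in place of 3.59.

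**Figure D1:**
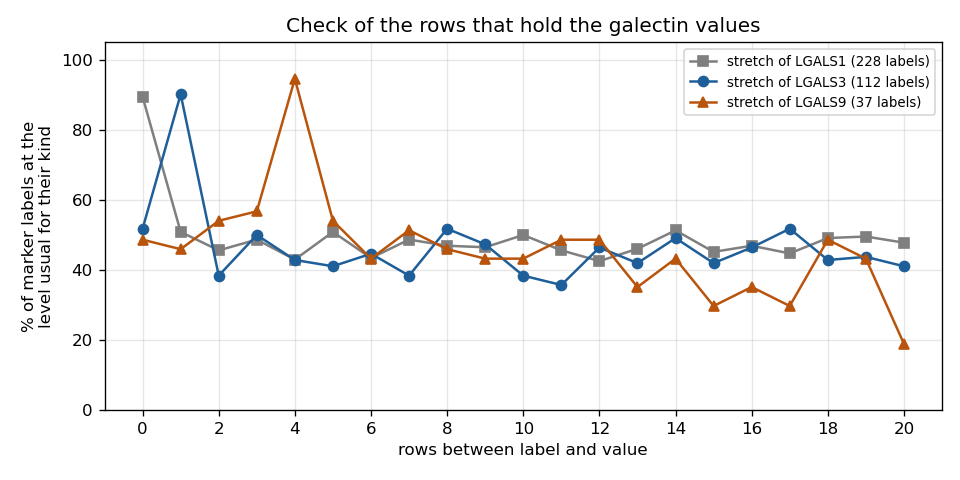
Percentage of labels of housekeeping genes at or above 5 FPKM and of lymphoid-silent genes under 1 FPKM (y axis) against the number of rows between label and value (x axis), for the stretches of the table that hold LGALS1, LGALS3 and LGALS9. Each stretch has a single peak, at 0, 1 and 4 rows (89.5%, 90.2% and 94.6%), and lies at or under 56.8% elsewhere.

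The genes lie on 4 chromosomes in GRCh38. LGALS1 (ENSG00000100097) is at chr22:37675608-37679806 on the plus strand, LGALS3 (ENSG00000131981) at chr14:55124110-55145413 plus, LGALS8 (ENSG00000116977) at chr1:236518000-236552981 plus, LGALS9 (ENSG00000168961) at chr17:27629798-27649560 plus and LGALS3BP (ENSG00000108679) at chr17:78971238-78980109 minus. The lengths in the table equalled the union of annotated exons for all 5. LGALS8 overlaps HEATR1 and 3 antisense genes on the opposite strand, and LGALS9 overlaps AC015688.4 on its own strand. Whether reads were counted by strand is not given in the sources used here, so reads in these overlaps, and reads shared by LGALS9 with its near-identical copies LGALS9B and LGALS9C, are uncertain.

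Promoter windows of 300 bases around the start were taken from RefSeq (GRCh38.p14) for 4 of the 5 genes, all but LGALS1. They are shown because LGALS9 and LGALS3BP each hold a match to GAAANNGAAA, the core of the interferon-stimulated response element, while LGALS3 does not. The matches begin 9 and 58 bases before the start, and that of LGALS9 extends to the start base itself. Distances here and below are those of the first base of a match. Both strands were searched for this core and for GGGCGG (GC box), for the CCAAT box, for the TATA box TATAAA and for TTCNNNGAA, and no matches overlapped. Capitals mark the matches.
LGALS9, chr17:27630938-27631237, plus strand: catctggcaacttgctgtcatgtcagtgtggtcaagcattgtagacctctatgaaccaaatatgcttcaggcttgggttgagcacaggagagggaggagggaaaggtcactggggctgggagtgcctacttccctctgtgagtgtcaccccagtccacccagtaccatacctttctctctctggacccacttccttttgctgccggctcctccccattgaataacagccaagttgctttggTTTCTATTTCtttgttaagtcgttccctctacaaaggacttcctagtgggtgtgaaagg
LGALS3BP, chr17:78979874-78980173, minus strand: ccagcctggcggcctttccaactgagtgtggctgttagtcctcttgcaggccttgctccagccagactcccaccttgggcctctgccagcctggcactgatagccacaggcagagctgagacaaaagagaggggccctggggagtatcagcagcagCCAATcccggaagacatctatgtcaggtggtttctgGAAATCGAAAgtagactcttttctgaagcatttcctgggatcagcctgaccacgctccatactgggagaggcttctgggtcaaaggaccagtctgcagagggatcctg
LGALS3, chr14:55129002-55129301, plus strand: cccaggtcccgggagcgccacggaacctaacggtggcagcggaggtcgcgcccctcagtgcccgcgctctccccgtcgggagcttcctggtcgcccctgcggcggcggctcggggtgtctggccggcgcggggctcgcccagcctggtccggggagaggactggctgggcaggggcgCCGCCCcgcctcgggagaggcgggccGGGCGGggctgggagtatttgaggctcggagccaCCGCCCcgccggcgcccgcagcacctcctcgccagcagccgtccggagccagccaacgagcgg
In LGALS9 the match is on the minus strand and reads TTTCTATTTC, and in LGALS3BP it is on the plus strand and reads GAAATCGAAA, with a CCAAT 94 bases before the start. LGALS3 has 3 GC boxes, 73, 47 and 13 bases before the start, and 39 CpG dinucleotides, against 4 in LGALS3BP, 2 in LGALS9 and a median of 14 over all windows. Of 35116 RefSeq windows of this length, 3.57% held the interferon element core, 45.0% the GC box and 34.6% CCAAT. Among the 3 LGALS8 windows, 1 held TATAAA at 2 positions and another held 1 GC box. A match is a description of the letters and not a bound site.

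LGALS1 was at 0.461 and 0.632 FPKM in Raji with DMSO and at 3.80 and 3.58 with chidamide. In Raji-4RH it was at 29.6 and 33.7 FPKM with DMSO and at 255 and 242 with chidamide. The 4 groups did not overlap and rose in that order, from 10 to 14 reads per library in the lowest group to 3921 to 4893 in the highest. In bulk RNA, more cells expressing a gene and more RNA per cell cannot be told apart, here and below.

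LGALS3 stood at 0.401 and 0.249 FPKM in Raji with DMSO and at 0.506 and 0.521 with chidamide. In Raji-4RH it stood at 1.20 and 1.22 FPKM with DMSO and at 4.03 in both libraries with chidamide. The groups were again separate and in the same order as for LGALS1, but the Raji values rested on only 12 to 26 reads per library.

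LGALS9 was nearly unread in Raji with DMSO, at 0.0798 and 0.0434 FPKM (9 and 5 reads), and was at 0.382 and 0.286 with chidamide. In Raji-4RH it was at 3.36 and 3.82 FPKM with DMSO and at 4.29 and 5.06 with chidamide. No groups overlapped, and the wide gap lay between the lines, with every Raji-4RH library above every Raji library.

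LGALS8 was level in 3 of the 4 groups, at 1.09 and 0.997 FPKM in Raji with DMSO, 1.16 and 1.06 in Raji with chidamide and 1.09 and 1.00 in Raji-4RH with DMSO. It was at 1.86 and 1.79 FPKM in Raji-4RH with chidamide. Those 2 libraries lay above the other 6, among which the groups overlapped.

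LGALS3BP followed another order. It was at 0.989 and 1.19 FPKM in Raji with DMSO, at 1.83 and 1.97 in Raji with chidamide, at 0.402 and 0.434 in Raji-4RH with DMSO and at 5.01 and 7.65 in Raji-4RH with chidamide. The untreated resistant cells were thus lowest and the treated resistant cells highest, with no overlap between groups, although the treated resistant libraries differed from each other more than any other pair of this gene (mean 6.33 ± 1.87 FPKM, SD, n = 2).

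**Figure D2:**
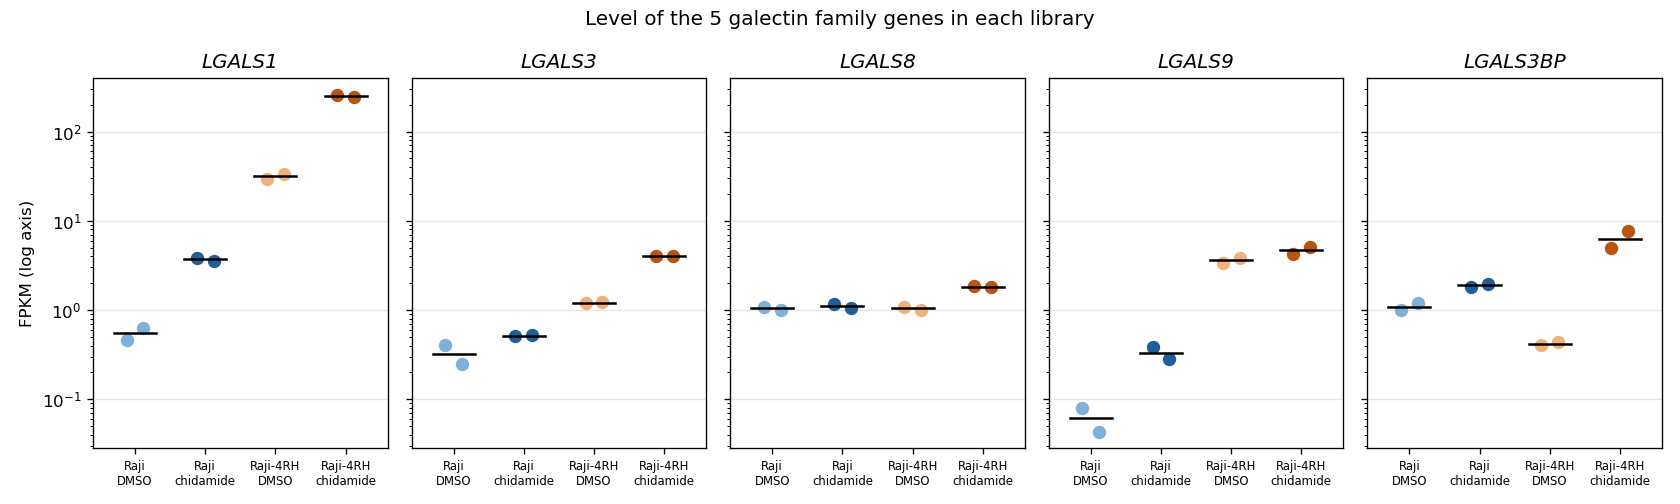
FPKM (log axis) of the 5 genes in each of the 8 libraries, by line and treatment; points are libraries and black lines are group means (n = 2). LGALS1 runs from 0.547 to 248 FPKM over the group means, LGALS9 separates mainly by line, LGALS8 is raised in 1 group and LGALS3BP is lowest in Raji-4RH with DMSO.

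On the FPKM scale, which is per gene length, the composition of the family also differed between groups. In Raji with DMSO the 5 genes summed to 3.02 and 3.11 FPKM, and LGALS1 held 15.3% and 20.3% of the sum. LGALS8 and LGALS3BP led there and changed places between the 2 libraries, so their order was not separable. LGALS1 held 49.5% and 48.3% in Raji with chidamide, 83.0% and 83.9% in Raji-4RH with DMSO, and 94.4% and 92.9% of sums of 270.2 and 260.3 FPKM in Raji-4RH with chidamide. LGALS9 was last in all 4 Raji libraries and second in both Raji-4RH DMSO libraries, with 9.42% and 9.51% of the sum. In Raji-4RH with chidamide LGALS3BP was second in both libraries, but its lower value (5.01 FPKM) did not exceed the higher one of LGALS9 (5.06).

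To see how the resistant line differed from its parent without drug, Raji-4RH with DMSO was compared with Raji with DMSO. Differences are in log2(FPKM + 1), which understates the change of genes near 0, and were tested with limma across 10710 genes with Benjamini-Hochberg adjustment; a gene was called at an adjusted p under 0.05. All 5 genes were among those tested, which needed 1 FPKM in 2 libraries, but LGALS3 and LGALS9 reached that level only in Raji-4RH. LGALS1 was higher by 4.40 (SE 0.08, adjusted p = 1.7e-09), a ratio of mean FPKM of 57.9. LGALS9 was higher by 2.11 (SE 0.09, adjusted p = 1.2e-07), a ratio of 58.3. Galectin-9 is known as a ligand of the inhibitory receptor TIM-3 and, on B cells, as a brake on antigen receptor signalling. LGALS3 was higher by 0.74 (SE 0.07, adjusted p = 1.6e-05), 3.73 times in mean FPKM. LGALS3BP was lower by 0.56 (log2 difference -0.56, SE 0.15, adjusted p = 0.00803), at 0.384 of the Raji mean; without the second Raji DMSO library the difference was -0.49 and no longer called (adjusted p = 0.0598). LGALS8 differed by 0.00 (95% confidence interval -0.14 to 0.14, adjusted p = 0.975). Thus 3 of the 5 genes were called higher and 1 lower, beside 41.2% of all genes tested called higher and 32.4% called lower, 73.6% in all. The median difference was 0.74 for the 5 genes and 0.06 over all genes. Count and median include LGALS3 and LGALS9, which entered the test only through Raji-4RH, and are therefore a description.

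With chidamide 4 of the 5 genes were called higher in Raji, beside 31.5% of all genes called higher and 28.5% called lower, or 60.0% in either direction. Only LGALS1 kept this call under the quantile normalization described below. LGALS1 rose by 1.60 (SE 0.08, adjusted p = 1.5e-06), 6.75 times in mean FPKM. LGALS3BP rose by 0.47 (SE 0.15, adjusted p = 0.0221), LGALS9 by 0.33 (SE 0.09, adjusted p = 0.0102) and LGALS3 by 0.19 (SE 0.07, adjusted p = 0.0354), with ratios of mean FPKM of 1.74, 5.42 and 1.58. LGALS8 differed by 0.05 (95% confidence interval -0.09 to 0.19, adjusted p = 0.544), and its groups overlapped. The calls of LGALS3, LGALS9 and LGALS3BP were near the threshold. LGALS3BP was not called when any 1 of the 4 Raji libraries was left out (0.40 and 0.54 without the first and second DMSO library, 0.51 and 0.44 without the first and second chidamide library). LGALS9 was not called without the second DMSO library (0.30, adjusted p = 0.0606) or the first chidamide library (0.28, adjusted p = 0.0729). LGALS3 was not called without the second DMSO library (0.11), either Raji chidamide library (0.20 and 0.19) or either Raji-4RH DMSO library, which share its estimate of the spread (adjusted p = 0.0546 and 0.0547).

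In Raji-4RH, LGALS1 was higher with chidamide by 2.94 (SE 0.08), 7.85 times in mean FPKM. It is among the genes that the study displayed for this comparison, so this value is a description. LGALS3BP rose by 2.35 (SE 0.15, adjusted p = 1.7e-06), 15.1 times in mean FPKM, and LGALS3 by 1.19 (SE 0.07, adjusted p = 1.0e-06), 3.33 times. LGALS8 rose by 0.47 (SE 0.06, adjusted p = 1.5e-04), 1.74 times. Galectin-8 is known for marking ruptured endosomes for autophagy through the receptor NDP52. LGALS9 rose by 0.30 (SE 0.09, adjusted p = 0.0109), 1.30 times, and was not called without the first DMSO library (0.23, adjusted p = 0.0812) or the second chidamide library (0.21, adjusted p = 0.0529). All 5 genes were called higher, beside 43.3% of all genes tested called higher and 31.6% called lower, or 74.9% in either direction. The median difference of the 5 genes was 1.19 against 0.09 over all genes. Count and median include LGALS1, whose value here is a description. The Raji and Raji-4RH chidamide effects rest on different libraries, whereas the comparison of the DMSO groups shares its libraries with both.

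The scale matters for LGALS8. When all libraries were given the same distribution of values (quantile normalization), the median of all genes in Raji-4RH moved by -0.11, from 0.09 to -0.02, and the share of called genes that were higher went from 57.9% to 47.8%. On that scale LGALS8 in Raji-4RH was at -0.10 with chidamide (adjusted p = 0.224), so its direction flipped, and LGALS9 was at 0.10 (adjusted p = 0.342). In Raji, LGALS8 was at -0.27 (adjusted p = 0.00967) and LGALS3 at -0.13 (adjusted p = 0.129). LGALS1 and LGALS3BP kept their direction in both lines, and LGALS3 in Raji-4RH. In Raji, however, LGALS3BP (0.17) and LGALS9 (0.11) lost their calls, so that LGALS1 alone was still called higher there.

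With chidamide in both lines, all 5 genes were called higher in Raji-4RH than in Raji, beside 44.3% of all genes called higher and 35.0% called lower, or 79.3% in either direction. LGALS3 and LGALS9 had entered the test only through Raji-4RH, so their calls here and the count are a description. LGALS1 was higher by 5.73 (SE 0.08, adjusted p = 5.2e-10), 67.3 times in mean FPKM, and LGALS9 by 2.09 (SE 0.09, adjusted p = 1.0e-07), 14.01 times. LGALS3 was higher by 1.73 (SE 0.07, adjusted p = 7.8e-08), and LGALS8 by 0.42 (SE 0.06, adjusted p = 2.4e-04) although at -0.02 under quantile normalization. LGALS3BP, which was lower in the resistant line without drug, was higher in it with drug by 1.31 (SE 0.15, adjusted p = 4.4e-05), 3.33 times.

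**Figure D3:**
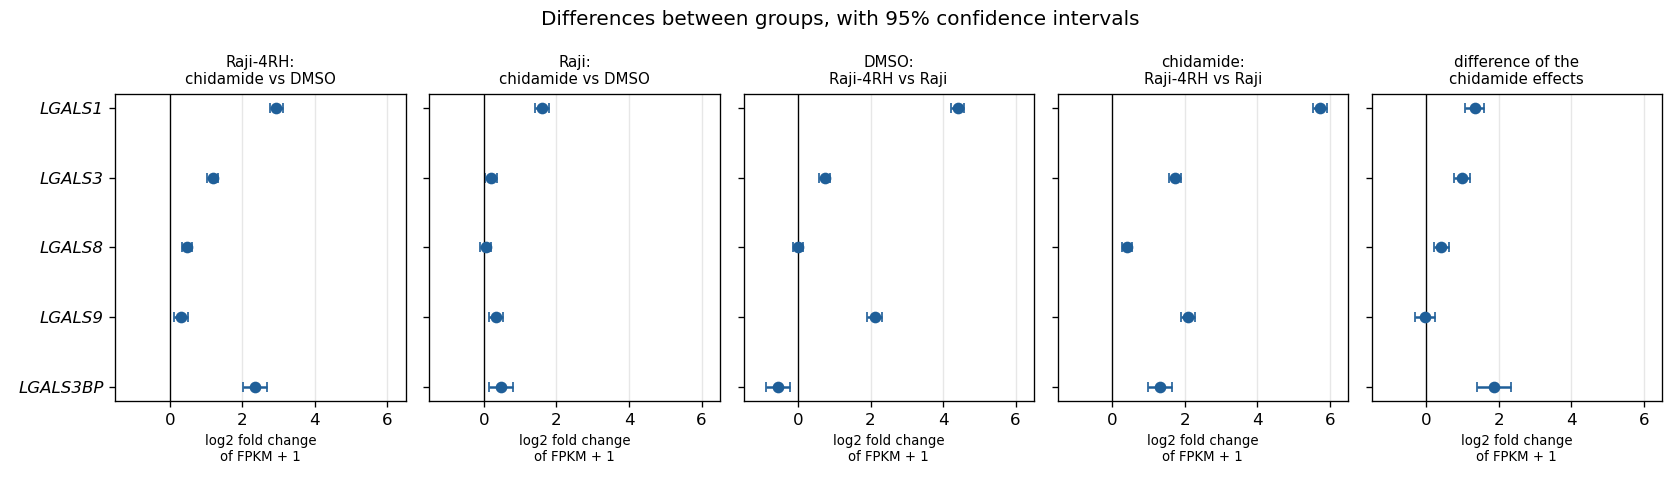
Difference in log2(FPKM + 1) for each gene in the 4 comparisons of groups, and the difference between the chidamide effects of the lines (last panel), with 95% confidence intervals from limma. LGALS1 lies farthest to the right in the first 4 panels, and LGALS3BP changes side between the DMSO and the chidamide comparison of the lines.

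Whether the lines responded differently was tested as the interaction of line and drug, called for 48.8% of all genes (27.2% higher, 21.7% lower). For LGALS3BP the effect was larger in Raji-4RH by 1.87 (SE 0.21, adjusted p = 2.0e-04). For LGALS3 it was larger by 0.99 (SE 0.10, adjusted p = 1.0e-04) and for LGALS8 by 0.42 (SE 0.09, adjusted p = 0.00481). For LGALS1 it was larger by 1.33 (SE 0.11), again a description. LGALS9 gave -0.02 (95% confidence interval -0.30 to 0.25, adjusted p = 0.886). In all, 4 of the 5 genes were called, each with the larger effect in Raji-4RH. This count includes LGALS1, whose value is a description, and LGALS3, which entered the test only through Raji-4RH.

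Values for LGALS1 and LGALS9 depended on how low levels were treated, since both start near 0 in Raji. With a pseudocount of 0.1 FPKM the difference for LGALS1 was 0.41 (SE 0.17), and on reads recovered from the FPKM values, fitted with limma voom, it was 0.25 (SE 0.39). On the read scale LGALS1 rose by 2.72 in Raji and 2.97 in Raji-4RH, and the difference between the lines was smaller than its standard error. For LGALS9 the difference became -1.06 with the smaller pseudocount (adjusted p = 0.00868) and -2.01 on reads (adjusted p = 0.0124), a larger multiple in Raji (2.40, SE 0.54) than in Raji-4RH (0.39, SE 0.11). LGALS3BP differed between the lines on each of the 3 scales, by 1.87, 2.85 and 3.10, and LGALS8 by 0.42, 0.67 and 0.71, although under quantile normalization LGALS8 gave 0.17 (adjusted p = 0.171). LGALS3 differed by 0.99, 1.10 and 1.04, the last not called (adjusted p = 0.0547).

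**Figure D4:**
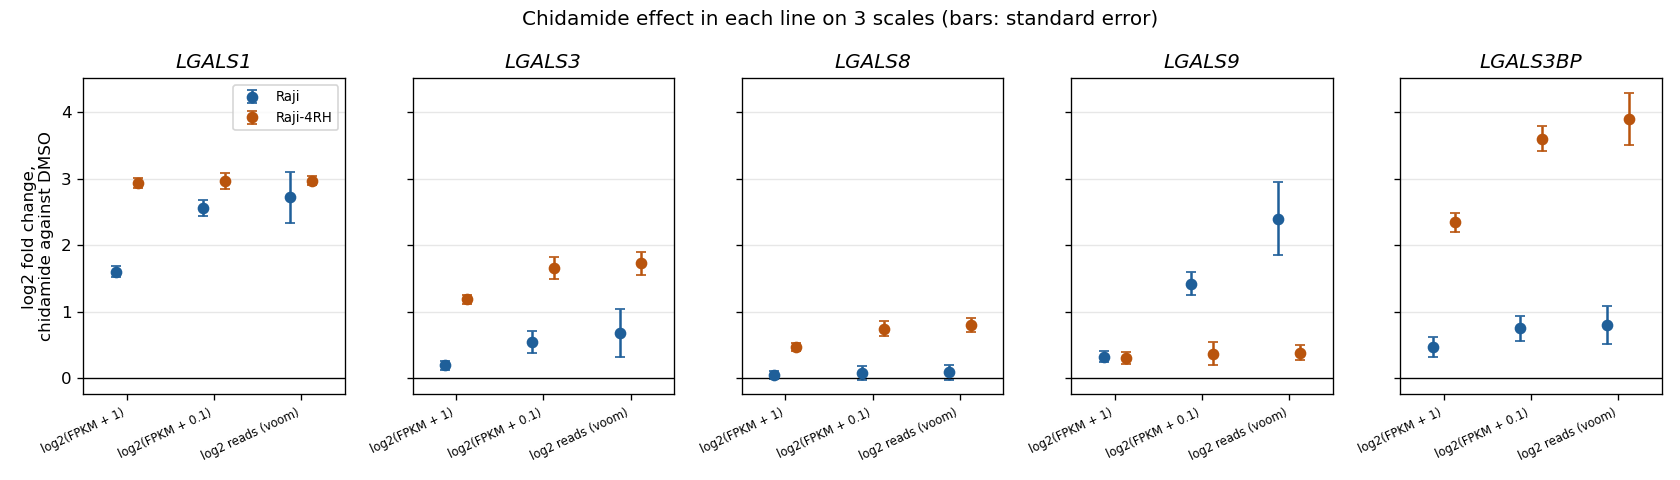
Log2 fold change with chidamide against DMSO in Raji (blue) and Raji-4RH (orange) on 3 scales, log2(FPKM + 1), log2(FPKM + 0.1) and log2 reads fitted with voom; bars are standard errors. The lines converge for LGALS1 from left to right, separate for LGALS9 with Raji above, and stay apart with Raji-4RH above for LGALS3BP and LGALS8 on these 3 scales.

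Of 13 other galectin genes looked up, 10 could be given a row, and their levels by line ran opposite ways. LGALSL, a galectin-like protein without known lectin activity, was at 1.10 and 1.08 FPKM in Raji with DMSO and 3.88 and 3.14 in Raji-4RH with DMSO (difference 1.10, adjusted p = 1.1e-05). LGALS14, a placental galectin, had 41 reads over the Raji DMSO libraries and 68 over the Raji chidamide libraries, but 0 reads in all 4 Raji-4RH libraries, which allows up to 0.0696 FPKM with DMSO and 0.0858 with chidamide (3 reads per group, counting error only). LGALS2, a prototype galectin on the same chromosome as LGALS1, was at 1.53 and 1.02 FPKM in Raji with DMSO and had 0 reads in Raji-4RH with DMSO, which allows up to 0.0907 FPKM. With chidamide LGALS2 was at 1.73 and 1.38 FPKM in Raji-4RH and at 3.69 and 2.55 in Raji. CLC, the Charcot-Leyden crystal galectin of eosinophils, was at 0.558 and 0.625 FPKM in Raji with DMSO and 3.59 and 4.46 with chidamide, while Raji-4RH had 1 read over both DMSO libraries and 10 over both chidamide libraries. These 4 genes were tested, and chidamide raised all 4 in Raji, beside 31.5% of all genes called higher, and 3 of them in Raji-4RH, beside 43.3%, where LGALS14 stayed at 0 reads. LGALS14 and CLC averaged under 1 FPKM in both DMSO groups and entered the test mainly through the Raji chidamide libraries. These counts are therefore a description. Under quantile normalization 2 of the 4 were called in each line, both higher. On that scale 3718 of all 10710 genes were called higher in Raji-4RH and 2643 in Raji. LGALS4, LGALS7B, LGALS9B, LGALS9C and LGALS12 were under 1 FPKM in every library, with LGALS9B at 0.752 at most, and LGALS13 had 0 reads throughout. In Raji-4RH, LGALS9B had 10 reads over the DMSO libraries and 51 over the chidamide libraries, and LGALS9C 2 and 44. Their part in the LGALS9 values was not tested.

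Glycoproteins that galectins are known to bind moved in both directions. Of 15 counter-receptor genes tested, 8 were called higher and 3 lower with chidamide in Raji-4RH, beside 43.3% higher and 31.6% lower of all genes, and 6 higher and 1 lower in Raji, beside 31.5% and 28.5%. In either direction 11 and 7 of the 15 were called, which is no larger a share than the 74.9% and 60.0% of all genes. HAVCR2 and VSIR averaged under 1 FPKM in both DMSO groups and entered the test through chidamide libraries, where they were high. These counts are therefore a description. TFRC, the transferrin receptor, fell in both lines, from 88.6 to 54.2 FPKM in Raji-4RH (-0.70, adjusted p = 8.7e-06) and from 36.0 to 24.0 in Raji (-0.56, adjusted p = 7.0e-05). CD7, a galectin-1 receptor on T cells, rose from 7.66 ± 1.07 to 21.1 ± 5.79 FPKM in Raji-4RH (SD, n = 2; 1.33, adjusted p = 7.8e-05). CD47, the anti-phagocytic surface protein, rose there from 10.8 to 19.2 FPKM (0.78, adjusted p = 1.7e-06), and P4HB, a disulfide isomerase that galectin-9 retains at the surface, fell from 71.9 to 57.2 (-0.33, adjusted p = 0.00264), a call that was lost under quantile normalization (-0.031, adjusted p = 0.712). Among genes of the list averaging 5 FPKM or more in Raji, CD40, a costimulatory receptor, rose from 17.3 to 56.4 FPKM (1.65, adjusted p = 2.6e-07), and CD22, an inhibitory coreceptor of the B cell receptor, rose from 81.9 to 135 (0.72, adjusted p = 1.1e-04). CD40 and CD22 were also called higher in Raji-4RH (0.76, adjusted p = 3.4e-06, and 0.25, adjusted p = 0.0213). CD47 and P4HB were not called in Raji. Nor was CD7, which was nearly unread in that line (0.0367 FPKM with DMSO and 0 with chidamide) and entered the test only through Raji-4RH. The list's median difference was 0.23 in Raji-4RH and 0.10 in Raji, beside 0.09 and 0.02 over all genes.

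Enzymes that build or trim the glycans galectins bind were called higher for 12 of 17 genes and lower for 2 in each line, with a median of 0.42 in each. Of all genes, 43.3% were called higher and 31.6% lower in Raji-4RH, and 31.5% and 28.5% in Raji. MGAT4A averaged under 1 FPKM in both DMSO groups and entered the test through the chidamide libraries, where it was high. The counts are therefore a description. In Raji-4RH the mannosidases MAN1A1 and MAN2A1, which trim N-glycans before branching, rose from 5.95 to 12.9 FPKM (1.00, adjusted p = 1.5e-06) and from 3.96 to 7.35 (0.75, adjusted p = 8.1e-06). In Raji, MGAT5, which adds the branch that carries polylactosamine, rose from 12.9 to 22.7 FPKM (0.77, adjusted p = 4.9e-06), and B3GNT2, which extends polylactosamine, from 13.7 to 27.9 (0.97, adjusted p = 8.9e-06). MAN1A1 and MAN2A1 were also called higher in Raji (0.42 and 0.25), and MGAT5 in Raji-4RH (0.58), where B3GNT2 was not called (0.08, adjusted p = 0.304). The 2 genes called lower were the same in both lines, namely MGAT3, which adds the bisecting residue (-0.64 in Raji-4RH and -0.24 in Raji), and MGAT4B, a branching enzyme (-0.42 and -0.28).

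Genes that act with galectins at damaged endomembranes were called higher for 8 of 14 and lower for 1 in Raji-4RH (median 0.17), and higher for 4 and lower for none in Raji (median 0.06). The 9 and 4 genes called of 14 were smaller shares than the 74.9% and 60.0% over all genes. In Raji-4RH the split was 10 higher and 3 lower under quantile normalization, beside 3718 higher and 4057 lower of all 10710 genes. The share called in the list was then larger than over all genes. With median-centred libraries it was 6 higher and 3 lower, beside 4141 and 3908 of all genes. RRAGA, a Rag GTPase that recruits mTORC1 to lysosomes, rose from 9.59 to 18.2 FPKM in Raji-4RH (0.86, adjusted p = 2.2e-06). CALCOCO2, which encodes NDP52, rose there from 4.25 to 6.40 FPKM (0.49, adjusted p = 2.2e-04), and TFEB, a regulator of lysosomal genes, fell from 16.9 to 12.9 (-0.37, adjusted p = 0.00309). Among genes of the list averaging 5 FPKM or more in Raji, the autophagy kinase ULK1 rose from 3.93 to 6.30 FPKM (0.57, adjusted p = 0.00403), and the kinase MAP3K7 from 8.16 to 10.96 (0.39, adjusted p = 6.0e-04). CALCOCO2 was also called higher in Raji (0.51, adjusted p = 3.0e-04) and ULK1 in Raji-4RH (0.76, adjusted p = 5.3e-04). RRAGA and TFEB were not called in Raji, nor was MAP3K7 in Raji-4RH.

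Interferon-stimulated genes were listed because LGALS9 and LGALS3BP are known to respond to interferon. Of 25 tested, 22 were called higher and 1 lower with chidamide in Raji-4RH (median 0.82), beside 43.3% higher and 31.6% lower of all genes, and 24 higher and none lower in Raji (median 0.98), beside 31.5% and 28.5%. Of the 25, 10 averaged under 1 FPKM in both DMSO groups and so entered the test mainly through the chidamide libraries, where they were high, and these counts are therefore a description. Under quantile normalization 16 were called higher in Raji-4RH (median 0.55) and 23 in Raji, beside 3718 and 2643 of all 10710 genes. IFI6 rose from 1.12 to 59.3 FPKM in Raji-4RH (4.83, adjusted p = 4.0e-08) and from 6.52 to 66.9 in Raji (3.18, adjusted p = 6.4e-07). OAS1 rose from 1.52 to 15.0 FPKM in Raji-4RH (2.66, adjusted p = 2.8e-07) and from 3.84 to 10.8 in Raji (1.28, adjusted p = 3.5e-05). Between the untreated lines, 6 of the 25 were called higher in Raji-4RH and 10 lower (median -0.13), beside 41.2% and 32.4% of all genes. That median includes the 10 genes that averaged under 1 FPKM in both DMSO groups. LGALS9 was higher there by 2.11, and LGALS3BP was lower. With chidamide in both lines 6 were called higher in Raji-4RH and 18 lower (median -0.49), beside 44.3% and 35.0% of all genes. LGALS9 and LGALS3BP were both higher in that comparison. Any part of an interferon response in the galectin values was not tested.

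**Figure D5:**
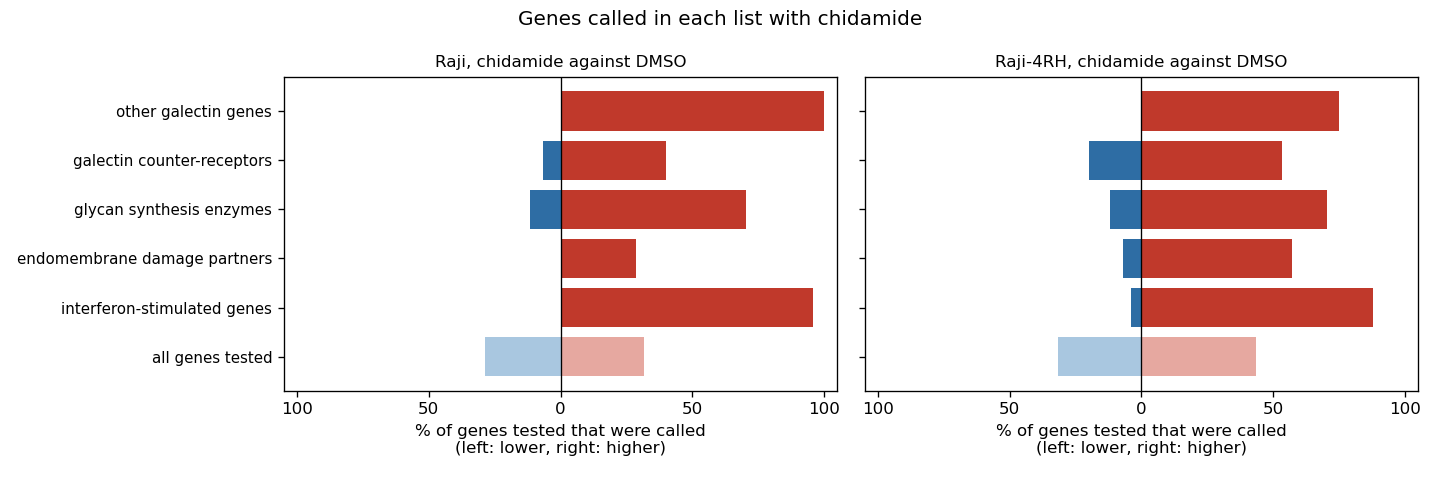
Percentage of the tested genes of each list that were called higher (red, right) or lower (blue, left) with chidamide in Raji and Raji-4RH, with all 10710 genes tested in pale colours at the bottom. Interferon-stimulated genes lie almost wholly to the right in both lines (24 of 25 and 22 of 25), 10 of the 25 having averaged under 1 FPKM in both DMSO groups. So did 2 of the other galectin genes, 2 counter-receptors and 1 glycan synthesis enzyme. The counter-receptors have calls on both sides.

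The genes with the most similar profiles were found by the root mean square difference between centred log2(FPKM + 1) profiles over the 8 libraries, among 6614 genes whose mean reached 5 FPKM. This is a description over 4 conditions, and some of these genes were themselves read from shifted rows. Nearest to LGALS1 was S100A4, a calcium-binding protein of motile cells (root mean square difference 0.51), with group means of 1.10, 5.13, 73.5 and 221 FPKM in the order Raji DMSO, Raji chidamide, Raji-4RH DMSO and Raji-4RH chidamide. ITM2C and the protease inhibitor CSTA followed (0.62 and 0.66). LGALS3 was nearest to the membrane protein SERINC3 (0.10), then DNAJC6 and PGGHG. LGALS8 was nearest to FNDC3A (0.05), the ceramide transporter COL4A3BP and the taurine transporter SLC6A6. LGALS9 was nearest to SDHC, a subunit of succinate dehydrogenase (0.12), then DPYSL2 and SSFA2. LGALS3BP was nearest to ACY3 (0.21), PGPEP1 and the sterol reductase TM7SF2. Within the family LGALS3 and LGALS9 had the smallest difference, at 0.54, with LGALS3 and LGALS8 (0.58) and LGALS3 and LGALS3BP (0.62) close behind.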

How the data were processed

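RNA-seq libraries of Raji and Raji-4RH cells were analysed from a table deposited by the authors, which holds FPKM values and gene lengths per gene, 1 column per library. Per the labels, cells were harvested by flow sorting, the libraries came from a NEBNext Ultra kit and the reads from an Illumina HiSeq X instrument. The submitters' processing notes name HISAT2 2.0.5, SAMtools 1.7, HTSeq 0.9.1 and DESeq2 1.22.2 with build hg38 (GRCh38). The annotation release and strand setting are not given in the sources used here.

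The table had 63967 labels but 63305 different rows of values, its last 662 rows repeating the first ones. Values were read from the row below each label that a stated rule assigns, and FPKM was recomputed with the label's own length. All non-zero values times length were whole reads within 0.05 reads, which gave read numbers and library totals. The rows placed held 90.7% to 93.2% of each library's reads. Genes with at least 1 FPKM in 2 libraries were tested with limma 3.58.1 in R 4.3.3 (trend, 1 fit over all 8 libraries) on log2(FPKM + 1), and checked on simulated data. The smallest p an exact permutation of 2 against 2 can reach is 0.333, so no such test was used. Alternatives were quantile normalization, median centring, other filters, a pseudocount of 0.1, no trend, only the libraries compared, a replicate block, limma voom on recovered reads, values in the label's own row, and leaving out each library. Named genes were the 5 members, the other galectins placed, the 2 largest called rises and falls of each list with a mean of 5 FPKM and no overlap, and the 3 nearest profiles per member; some genes that these rules or the marker lists hold are not reported here. The members and lists were chosen with earlier results of these data known, so p-values are no independent evidence for them. The row rule used overall gene levels. LGALS1 was displayed by the study for Raji-4RH with chidamide, and no p is given for it there. Coordinates and overlaps came from the GENCODE annotation of GRCh38, promoter windows from RefSeq. Python 3.11.15, pandas 2.3.3, numpy 2.4.6 and matplotlib 3.10.9 were used.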

Additional observations from a re-analysis of the deposited data

Results flagged for a closer look

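The chidamide effect differed between Raji-4RH and Raji by the interaction test for 4 of the 5 genes. This count includes LGALS1, and LGALS3, which entered the test only through Raji-4RH. The difference in log2(FPKM + 1), Raji-4RH minus Raji, was 1.87 for LGALS3BP, 1.33 for LGALS1, 0.99 for LGALS3 and 0.42 for LGALS8, the last falling to 0.17 (adjusted p = 0.171) under quantile normalization. The value for LGALS1 is a description, since the study displayed this gene for the Raji-4RH comparison, and it was 0.41 and 0.25 with a pseudocount of 0.1 and on recovered reads.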

How the results depend on the processing

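Over 30 results (the 5 genes and the count of called genes in each of 5 comparisons) and up to 18 alternatives each, 534 alternative values were computed. Of these, 490 were unchanged, which for a gene meant the same direction and the same side of the threshold. For a count of called genes it meant staying within 1.5 times, which all the counts did. All remaining values were those of single genes, of which 27 lost the call, 2 gained one and 15 changed direction.

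Under quantile normalization LGALS8 changed direction with chidamide in Raji-4RH (-0.10) and Raji (-0.27) and between the lines with DMSO (-0.20) and with chidamide (-0.024), as did LGALS3 in Raji (-0.13). Calls were lost there for LGALS9 in Raji-4RH (0.10) and Raji (0.11), LGALS3BP in Raji (0.17) and the LGALS8 interaction (0.17). With median-centred libraries the LGALS3 effect in Raji lost its call (0.15), and LGALS8 between the DMSO groups was -0.042. Without a filter, where more genes are tested, the calls of LGALS3 (0.19) and LGALS3BP (0.47) in Raji and of LGALS3BP between the DMSO groups (-0.56) were lost. With a pseudocount of 0.1 calls were lost for LGALS9 in Raji-4RH (0.37) and the LGALS1 interaction (0.41), and the LGALS9 interaction was called (-1.06). On recovered reads with limma voom, LGALS3 in Raji (0.68) and the interactions of LGALS1 (0.25) and LGALS3 (1.04) were not called, and that of LGALS9 was (-2.01); this fit called 8113 genes in Raji-4RH with chidamide, beside 8022. Reading LGALS3 from its label's own row gave -0.21 between the DMSO groups, -0.28 between the chidamide groups and -0.074 for the interaction. Apart from where the construction shows it, the cause was not tested.

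With 1 library left out, the lone library of its group being assumed to vary like the others, values ranged from 0.11 to 0.28 for LGALS3 in Raji, 0.28 to 0.38 for LGALS9 in Raji, 0.40 to 0.54 for LGALS3BP in Raji, 0.21 to 0.40 for LGALS9 in Raji-4RH, -0.63 to -0.49 for LGALS3BP and -0.030 to 0.035 for LGALS8 between the DMSO groups, and -0.12 to 0.075 for the LGALS9 interaction. The labels do not say that replicate numbers pair libraries, and deviations of same-numbered libraries correlated at -0.09 between the Raji groups and 0.17 between the Raji-4RH groups across genes. A replicate block left every call of the 5 genes as it was, for example LGALS3 in Raji at 0.19 (adjusted p = 0.0486), and moved the called genes in Raji-4RH with chidamide from 8022 to 7886. Depth limits LGALS9, LGALS1 and LGALS3 in Raji with DMSO most, where each had 5 to 19 reads per library.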
